A study of Mus musculus with 2 samples.

Results

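The IL6 family of cytokines and receptors was examined in bulk RNA-Seq of Pdpn+ cells sorted from mouse kidney. The family was taken as 10 genes, found by their symbols among the 55471 genes of the deposited table. They are the ligand genes *Il6*, *Lif* and *Il11*, the receptor genes *Il6ra*, *Lifr*, *Osmr* and *Il11ra1*, the shared receptor gene *Il6st*, the transcription factor gene *Stat3* and the inhibitor gene *Socs3*. Each symbol stood on a single gene ID, and 9 of the 10 genes had at least 20 counts in at least 1 library. *Il6* was the exception.

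The VhlhKO library came from mice that carry *Hoxb7-Cre-GFP* and *Vhlh* loxP/loxP, and the Ctrl library from mice labelled *Hoxb7-Cre-GFP*. A description of the Ctrl sample names *Vhlh* loxP/loxP without Cre, so its labels differ from each other. Both groups were male C57BL/6J mice labelled as 12 weeks old, while other text of the deposit gives 8 to 12 and 10 to 12 weeks. The *Hoxb7* promoter drives Cre in kidney tubule epithelium, where exon 1 of *Vhlh* is deleted. The sort was designed to remove EpCAM+, CD45+ and Nephrin+ cells and to keep Pdpn+ cells, which were held in endothelial medium for some hours before RNA extraction. Each library was a pool of mice, given as 6 animals in the account of the sort and as 3 in the account of the sequencing. With 1 library per genotype there was no replicate and no test between genotypes, and every interval below covers counting error only.

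Cytokines of the IL6 family share the receptor chain gp130, which *Il6st* encodes. IL6 and IL11 first bind their own alpha receptors, encoded by *Il6ra* and *Il11ra1*, whereas LIF joins gp130 to the LIF receptor and oncostatin M joins gp130 to its receptor, encoded by *Osmr*. The bound receptors activate Janus kinases, which phosphorylate STAT3. STAT3 then switches on acute phase and survival genes, and also *Socs3*, whose protein binds gp130 and the kinases and ends the signal. In kidney, this pathway is known for its activity after tubular injury and during inflammation.

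The libraries held 34465017 counts in VhlhKO and 31817115 in Ctrl. Counts were scaled by TMM, a correction for library composition, and are given as CPM, a gene's count relative to the scaled library total. TPM, as deposited, also divides by gene length and is used where genes are compared with each other. A gene was called at least 2-fold different where the log2 ratio of VhlhKO over Ctrl, with 0.5 CPM added to both sides, passed 2-fold and at least 1 library had 20 counts. By this rule 261 of 15275 genes were higher in VhlhKO, which is 1.71% of them, and 80 genes, or 0.524%, were lower. Fold values of single genes are scaled count ratios without the added 0.5 CPM. *Vhl*, the gene deleted in the tubule, gave 28.4 CPM (VhlhKO) and 29.4 CPM (Ctrl), and the interval of its ratio included 1 (0.882 to 1.06). Although tubule epithelium, in which Cre acts, was to be depleted, epithelial genes were present, with *Hoxb7* at 135 TPM in VhlhKO and 128 TPM in Ctrl, *Cdh16* at 85.3 and 117 TPM and *Epcam* at 7.35 and 3.53 TPM. The share of cells with the deletion was not measured. Among the markers of lymphatic endothelium, *Pdpn* was at 132 TPM in VhlhKO and 114 TPM in Ctrl. *Prox1*, which encodes a transcription factor of lymphatic identity, was at 1.76 and 1.93 TPM and the endothelial cadherin gene *Cdh5* at 2.60 and 2.54 TPM. *Flt4*, which encodes VEGFR3, was at 11.3 TPM in VhlhKO and 9.70 TPM in Ctrl, *Nrp2* at 42.7 and 41.7 TPM and *Lyve1* at 4.56 and 0.385 TPM. *Mmrn1* and *Ccl21a* were at 0 in both libraries. As some markers of the list were present and others at 0, the cells are called Pdpn+ cells here.

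None of the 9 measured members was at least 2-fold higher or lower in VhlhKO, beside 2.23% of all genes tested in either direction. The interval of the count ratio lay above 1 for 7 of the 9, namely *Il6ra*, *Osmr*, *Lifr*, *Socs3*, *Lif*, *Il6st* and *Stat3*, and it included 1 for *Il11* and *Il11ra1*. Over all 15275 genes the interval lay above 1 for 19.0% and below 1 for 17.3%, and over the 12250 genes with at least 100 counts in 1 library it lay above 1 for 20.8% and below 1 for 19.9%. The median log2 ratio of the 9 members was 0.32, with a range of -0.18 to 0.98, against -0.00065 over all genes tested. Of all genes tested, 93.4% lay within 1.5-fold, and 7 of the 9 members did so as well. The members outside that range were *Il6ra* and *Osmr*. In bulk RNA, more cells of a type and more RNA per cell cannot be told apart.

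**Figure D1:**
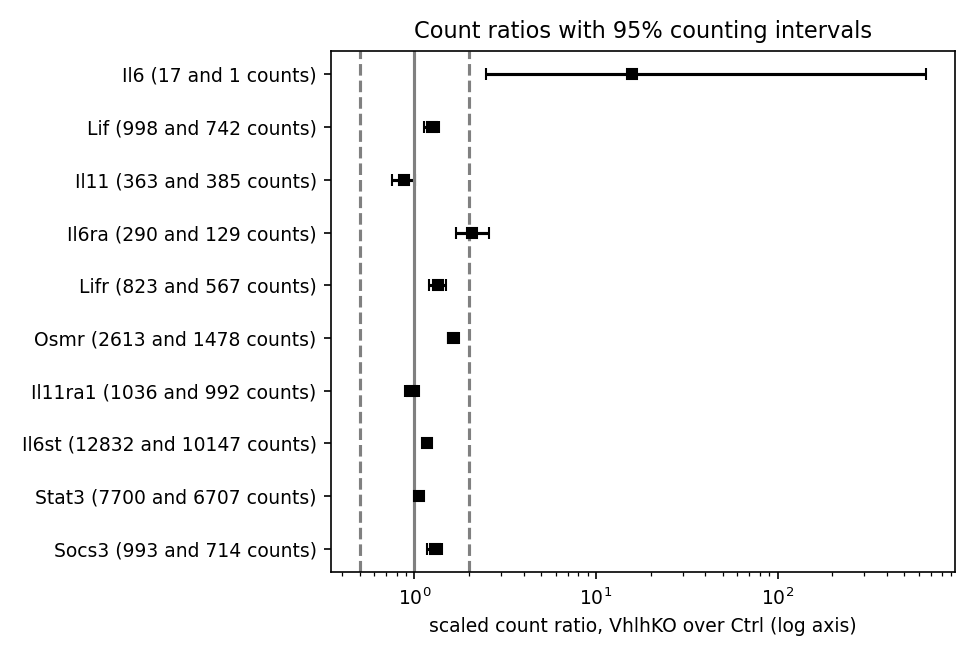
Scaled count ratio of VhlhKO over Ctrl for each member, on a log axis, with the counts of VhlhKO and Ctrl in that order beside each name. Squares are the ratios, bars the 95% exact counting intervals, the solid line is a ratio of 1 and the dashed lines are 2-fold. *Il6* has the widest interval (2.48 to 660), and the intervals of *Il11* and *Il11ra1* cross 1.

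The gene of the founding cytokine, *Il6*, lies on chromosome 5 of GRCm38 from 30013114 to 30019981 on the plus strand. It had 17 counts in VhlhKO and 1 count in Ctrl. Its level was 0.728 TPM in VhlhKO (0.424 to 1.17, exact Poisson interval) and 0.0463 TPM in Ctrl (0.00117 to 0.258). The TPM intervals did not overlap, and the count ratio was 15.8 with an interval of 2.48 to 660. As neither library reached 20 counts, *Il6* was left out of the counts of genes past 2-fold. Among the 1692 genes with at least 10 and under 20 counts in the library with more, 6.56% had an interval above 1 and 3.78% had an interval below 1. With 0.5 CPM added, which equals 17.2 counts in VhlhKO and 16.0 in Ctrl, the log2 ratio of *Il6* was 0.90. This value moved with the amount added, to 2.74 with 0.05 CPM and 0.13 with 5 CPM, so the data place *Il6* as scarce in both libraries and give the size of its difference only within a wide range. In VhlhKO 4.03% of the genes tested had a lower TPM than *Il6*, and in Ctrl 0.0458% did.

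The alpha receptor gene *Il6ra*, on chromosome 3 from 89864059 to 89913196 on the minus strand, had 290 counts in VhlhKO and 129 in Ctrl. It was at 3.49 TPM in VhlhKO (3.10 to 3.92) and 1.68 TPM in Ctrl (1.40 to 1.99). The count ratio was 2.09, with an interval of 1.69 to 2.59, and the log2 ratio with 0.5 CPM added was 0.98, just inside the 2-fold limit. With 0.05 CPM added it was 1.05 and passed the limit. Of the 15275 genes tested, 273 had a higher log2 ratio. An antisense gene, *Gm42809*, shares 242 exonic bases with *Il6ra* and had 5 counts in VhlhKO and 2 in Ctrl. Macrophages can express *Il6ra*, and their markers differed as well. Of 14 macrophage and monocyte genes, 12 were measured and the list summed to 121 CPM (VhlhKO) and 69.3 CPM (Ctrl), with a median log2 ratio of 0.73. *Lyz2*, a lysozyme gene, gave 58.4 CPM of this sum in VhlhKO (2007 counts) and 16.4 CPM in Ctrl (522 counts). Of the 12 genes, 8 had an interval above 1 and 2 below, beside 19.0% and 17.3% of all genes. The 2 below were *Cd163*, a scavenger receptor gene (5 counts in VhlhKO against 38 in Ctrl), and *Csf1r* (0.844, 0.715 to 0.996). *Ptprc*, which encodes CD45, had 24 counts in VhlhKO and 12 in Ctrl, and *Ccr2* had none. Their part in the *Il6ra* difference was not tested.

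The windows upstream of *Il6* and *Il6ra* are shown because these were the only members with a count ratio above 2. Each window holds the 250 bases before the RefSeq start site (GRCm38.p6), read 5′ to 3′ on the strand of the gene, and neither overlaps the gene body of GENCODE M21. The *Il6* window is chr5:30012864-30013113 on the plus strand and the *Il6ra* window chr3:89913197-89913446 on the minus strand. Capitals mark matches on either strand to any of 7 short motifs: TTCNNNGAA for STAT factors, a consensus for NF-κB, TTGCNNAA for C/EBP, TGANTCA for AP-1, TGACGT for CREB, and ACGTG and GCGTG for hypoxia-inducible factors.
Il6: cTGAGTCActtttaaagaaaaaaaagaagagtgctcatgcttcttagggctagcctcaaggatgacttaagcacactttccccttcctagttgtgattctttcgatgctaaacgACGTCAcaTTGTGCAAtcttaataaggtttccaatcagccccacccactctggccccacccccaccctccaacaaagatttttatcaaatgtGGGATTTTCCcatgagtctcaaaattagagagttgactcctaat
Il6ra: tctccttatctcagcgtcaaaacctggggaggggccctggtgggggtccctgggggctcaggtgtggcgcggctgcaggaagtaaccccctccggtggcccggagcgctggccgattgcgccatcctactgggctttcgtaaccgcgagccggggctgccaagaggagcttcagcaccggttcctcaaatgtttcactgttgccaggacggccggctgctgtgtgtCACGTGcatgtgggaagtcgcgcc
In the *Il6* window the capitals are an AP-1 match from base -249 to -243 before the start, a CREB match from -136 to -131, a C/EBP match from -128 to -121 and an NF-κB match from -44 to -35. Of 32851 promoter windows of the same length, 6.75% held the AP-1 letters, 6.47% the CREB letters, 9.56% the C/EBP letters and 0.356% the NF-κB letters. In the *Il6ra* window the capitals are 6 bases near the start that read as ACGTG on both strands, letters that 16.6% of windows held. All 10 members had windows in the RefSeq table, 13 windows in all. The AP-1 letters were in a window of each ligand gene (*Il6*, *Lif* and *Il11*), and the STAT letters, which 7.02% of windows held, were in the window of *Socs3* only. The GCGTG letters, which 28.2% of windows held, were in a window each of *Lif* and *Lifr*. No window of *Osmr*, *Il6st*, *Il11ra1* or *Stat3* held any of the 7 motifs. All 250 bases of the *Osmr* window lie in GENCODE M21 exons of the gene. The *Socs3* window and the *Il11* window with the AP-1 letters lie wholly inside the GENCODE M21 gene body. These matches are letters in a window and were not tested as binding sites.

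The other ligands among the members were far more abundant than *Il6*. *Lif*, which encodes leukemia inhibitory factor, lies on chromosome 11 from 4257557 to 4272514 and had 998 counts in VhlhKO and 742 in Ctrl. It was at 23.9 TPM in VhlhKO (22.4 to 25.4) and 19.2 TPM in Ctrl (17.8 to 20.6), and its count ratio was 1.25 (1.14 to 1.38). *Il11*, an IL6 relative known for its part in fibrosis, lies on chromosome 7 from 4772373 to 4782859. There were 363 *Il11* counts in VhlhKO and 385 in Ctrl, or 18.1 TPM (16.3 to 20.1) and 20.8 TPM (18.8 to 23.0). Its ratio of 0.876 had an interval of 0.757 to 1.01, so the difference was within counting error. *Lif* was 1.32 times the level of *Il11* per length in VhlhKO and 0.922 times in Ctrl. *Lif* per length was 32.8 times the level of *Il6* in VhlhKO and 414 times in Ctrl, the last on a single *Il6* count.

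Most ligand transcripts of the family belonged to a gene outside the 10. *Clcf1*, which encodes the cardiotrophin-like cytokine that signals through gp130, the LIF receptor and the CNTF receptor, was at 349 TPM in VhlhKO and 417 TPM in Ctrl. It made up 87.5% of the summed TPM of 9 ligand genes in VhlhKO and 89.9% in Ctrl, where *Lif* made up 5.99% and 4.13%, *Il11* 4.55% and 4.48%, and *Il6* 0.183% and 0.00997%. The count ratio of *Clcf1* was 0.839 (0.819 to 0.860), in the opposite direction to *Lif*. *Ctf1*, cardiotrophin 1, had 104 counts in VhlhKO and 82 in Ctrl, with a ratio interval of 0.874 to 1.59. Of the 10 further ligand and co-ligand genes 3 were measured and none was past 2-fold. *Osm*, the ligand of the receptor that *Osmr* encodes, had 1 count in VhlhKO and 2 in Ctrl, and *Il31* and *Ctf2* had none.

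**Figure D2:**
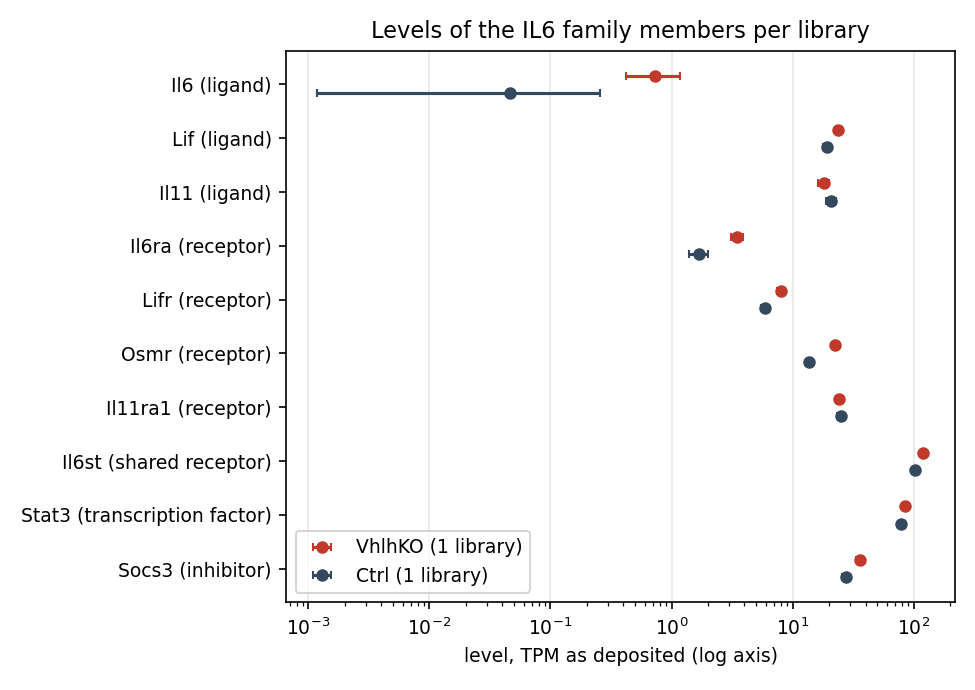
Level of each member in the VhlhKO and Ctrl libraries, in TPM as deposited, on a log axis. Points are single libraries and bars are 95% exact Poisson counting intervals. *Il6st* and *Stat3* are the highest in both libraries, *Il6ra* and *Il6* the lowest.

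Of the ligand-specific receptor genes, *Osmr* and *Lifr* also had intervals above 1, as *Il6ra* did. *Osmr*, on chromosome 15 from 6813577 to 6874969, had 2613 counts in VhlhKO and 1478 in Ctrl. It was at 22.4 TPM in VhlhKO (21.6 to 23.3) and 13.7 TPM in Ctrl (13.0 to 14.4). Its count ratio of 1.64 (1.54 to 1.75) was below that of *Il6ra* and above those of the other measured members, and 516 of the genes tested had a higher log2 ratio. *Lifr*, which lies on the same chromosome from 7090614 to 7197489, had 823 counts in VhlhKO and 567 in Ctrl, or 7.95 TPM (7.41 to 8.51) and 5.92 TPM (5.44 to 6.42). The *Lifr* ratio was 1.35 (1.21 to 1.504), below the interval of *Osmr*. The intervals of the *Osmr* (1.54 to 1.75) and *Il6ra* (1.69 to 2.59) ratios overlapped at their edges, and these ratios were not tested against each other. The product of *Lifr* serves LIF and CLCF1, and that of *Osmr* serves oncostatin M and, with a partner encoded by *Il31ra*, IL31. *Il31ra* had no counts in either library. Fibroblasts can express *Osmr*, *Lif*, *Il6* and *Ccl2*, and fibroblast markers differed between the same libraries. Of 15 fibroblast and pericyte genes, 13 were measured. Of these, 6 passed the 2-fold rule upward and 0 downward, beside 1.71% and 0.524% of all genes. The list summed to 7980 CPM (VhlhKO) and 7589 CPM (Ctrl). The 6 were the collagen genes *Col1a1*, *Col1a2* and *Col3a1*, with ratios of 3.28, 3.70 and 3.60, and *Pdgfra* (5.88), *Des* (2.53) and *Postn* (2.44). Of the 13, 9 had an interval above 1 and 3 below, beside 19.0% and 17.3% of all genes. The 3 below were the contractile genes *Tagln* (0.894) and *Acta2* (0.977), which had the highest counts of the list, and *Cspg4* (0.831). Their part in the differences of the members was not tested.

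*Il11ra1*, on chromosome 4 from 41699989 to 41769474, had 1036 counts in VhlhKO and 992 in Ctrl. Its levels of 24.1 TPM in VhlhKO (22.7 to 25.6) and 24.9 TPM in Ctrl (23.4 to 26.5) overlapped, and the count ratio was 0.970 (0.889 to 1.06). Its reads are the least certain of the family, because mouse carries near-copies of this gene. Of the 100-base stretches in *Il11ra1* transcripts, 29.1% occur in *Gm13305* and 10.3% in *Il11ra2*, whereas *Il6ra* shared 1.67% with *Gm42809* and the other 8 members shared none with any gene. *Gm13305* had no counts. The symbol *Il11ra2* stands on 3 gene IDs, 1 with 8 counts in VhlhKO and none in Ctrl, 1 with none and 3, and 1 with none in either. With these summed to *Il11ra1* the ratio was 0.975 (0.893 to 1.06).

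The 4 ligand-specific receptor genes summed to 58.0 TPM in VhlhKO and 46.3 TPM in Ctrl, and their shares of this sum differed. *Il11ra1* made up 41.6% of it in VhlhKO and 53.9% in Ctrl. *Osmr* made up 38.7% in VhlhKO and 29.7% in Ctrl, *Lifr* 13.7% and 12.8%, and *Il6ra* 6.02% and 3.63%. In VhlhKO the TPM intervals of *Il11ra1*, *Lif* and *Osmr* overlapped, whereas in Ctrl *Osmr* lay below both of the others.

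**Figure D3:**
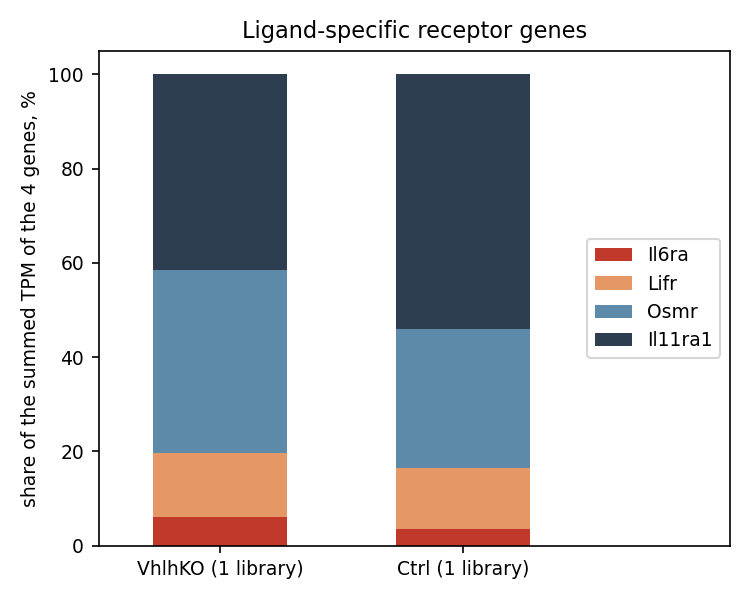
Share of each ligand-specific receptor gene in the summed TPM of the 4 genes, in percent, for the VhlhKO and Ctrl libraries. The *Osmr* segment is 38.7% in VhlhKO and 29.7% in Ctrl, and the *Il11ra1* segment 41.6% and 53.9%.

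*Il6st*, the gene of the shared gp130 chain, was the most abundant member. It lies on chromosome 13 from 112464070 to 112510086 and had 12832 counts in VhlhKO and 10147 in Ctrl, or 120 TPM (118 to 122) and 103 TPM (101 to 105). Its count ratio was 1.18 (1.14 to 1.21). Per length, *Il6st* was 34.5 times the level of *Il6ra* in VhlhKO and 61.2 times in Ctrl. It was 5.36 times the level of *Osmr* in VhlhKO and 7.49 times in Ctrl, and 15.1 and 17.4 times that of *Lifr*. In both libraries the common chain thus outnumbered each ligand-specific chain as RNA. Levels of protein at the cell surface were not measured.

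*Stat3*, on chromosome 11 from 100885098 to 100939540, had 7700 counts in VhlhKO and 6707 in Ctrl, or 84.1 TPM (82.2 to 86.0) and 79.1 TPM (77.3 to 81.1). Its ratio of 1.07 (1.03 to 1.10) was the smallest of those whose interval lay above 1. The count covers RNA, and phosphorylation of STAT3 was not measured. *Socs3*, on the same chromosome from 117966079 to 117970047, had 993 counts in VhlhKO and 714 in Ctrl, or 35.7 TPM (33.5 to 38.0) and 27.8 TPM (25.8 to 29.9). The *Socs3* ratio was 1.29 (1.17 to 1.42), and 91.0% of the genes tested had a lower log2 ratio.

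**Figure D4:**
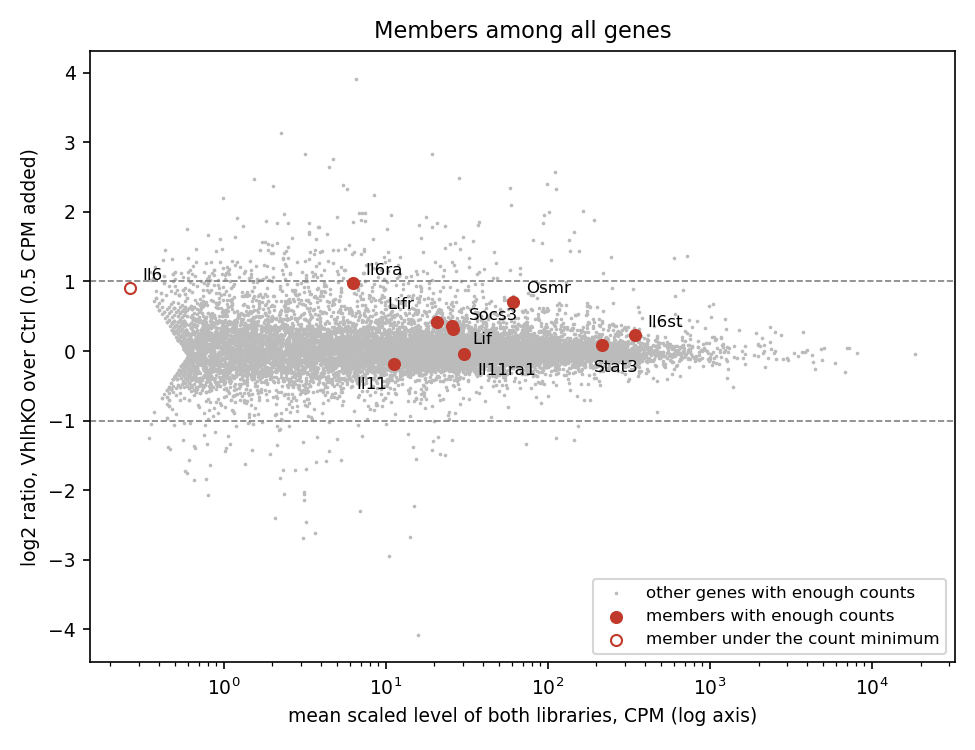
Log2 ratio of VhlhKO over Ctrl with 0.5 CPM added against the mean scaled level of both libraries in CPM on a log axis, for all 15275 genes tested (grey) and the members (red; open circle for *Il6*, which was under the count minimum). Dashed lines are 2-fold. All members lie between the dashed lines, with *Il6ra* at 0.98 nearest to the upper one.

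Around the members, none of 9 measured Janus kinases and other STATs was past 2-fold. Their median log2 ratio was 0.14. Of the 9, 7 had an interval above 1 and 0 below, beside 19.0% and 17.3% of all genes. Among these 7 were *Stat5a* (count ratio 1.25, 1.06 to 1.48), *Jak3* (1.22, 1.09 to 1.36) and *Jak2* (1.10, 1.01 to 1.20). None of 19 adaptors and feedback inhibitors was past 2-fold, with a median of 0.02. Of the 19, 3 had an interval above 1 and 1 below, beside the same shares of all genes. *Socs2*, an inhibitor best known for growth hormone signaling, had a ratio of 1.46 (1.36 to 1.57) on 1909 counts in VhlhKO and 1215 in Ctrl, and *Cish*, a related inhibitor, had a ratio of 1.30 (1.18 to 1.43). *Socs1* was at 90 counts in VhlhKO and 101 in Ctrl, with an interval that included 1 (0.616 to 1.11). Of 3 further receptor genes measured, *Cntfr*, *Il27ra* and *Lepr*, all had intervals that included 1.

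The proteases that can release the IL6 receptor from the cell surface, encoded by *Adam10* and *Adam17*, had count ratios of 1.15 (1.10 to 1.19) and 1.14 (1.06 to 1.22). Their regulators *Rhbdf2*, which encodes a partner that carries ADAM17 to the surface, and *Timp3*, which encodes an inhibitor, had ratios of 1.17 (1.06 to 1.29) and 1.24 (1.21 to 1.27). None of the 8 genes of this shedding and trafficking list was past 2-fold. Of the 8, 5 had an interval above 1 and 1 below, beside 19.0% and 17.3% of all genes. The 1 below was *Sort1* (0.919, 0.877 to 0.962).

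Of 28 measured target genes of STAT3, 3 passed the 2-fold rule upward and 0 downward, beside 1.71% and 0.524% of all genes, and the median log2 ratio was 0.19. *Saa3*, a serum amyloid gene of the acute phase response, rose 7.70-fold (3.51 to 20.0), with 58 counts in VhlhKO and 7 in Ctrl. *Lcn2*, which encodes lipocalin 2, a protein known from injured tubules, rose 2.88-fold (2.56 to 3.24), with 1183 counts in VhlhKO and 382 in Ctrl. *Ccl2*, a monocyte attractant, rose 2.41-fold (1.82 to 3.23), with 179 and 69 counts. All 3 are also known targets of NF-κB. The metallothionein gene *Mt2* had a ratio of 1.97 (1.86 to 2.08) and the cyclin gene *Ccnd1* 1.60 (1.57 to 1.62), both within 2-fold. Acute phase genes of the list differed in direction. *Serpina3n* had a ratio of 1.48 (1.33 to 1.66), and the interval of *Lbp* included 1 (0.911 to 1.23). *Hp*, haptoglobin, was at 47 counts in VhlhKO and 101 in Ctrl, with a ratio of 0.432 (0.299 to 0.617) and a log2 ratio of -0.97 after the added 0.5 CPM, and *Fgb*, a fibrinogen chain, had a ratio of 0.672 (0.607 to 0.743). *Saa1* and *Saa2* had no counts. With 5 CPM added only *Lcn2* passed 2-fold, and with 0.05 CPM added or by TPM *Hp* passed it downward. Of the 28 genes, 17 had an interval above 1 and 6 below, beside 19.0% and 17.3% of all genes.

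**Figure D5:**
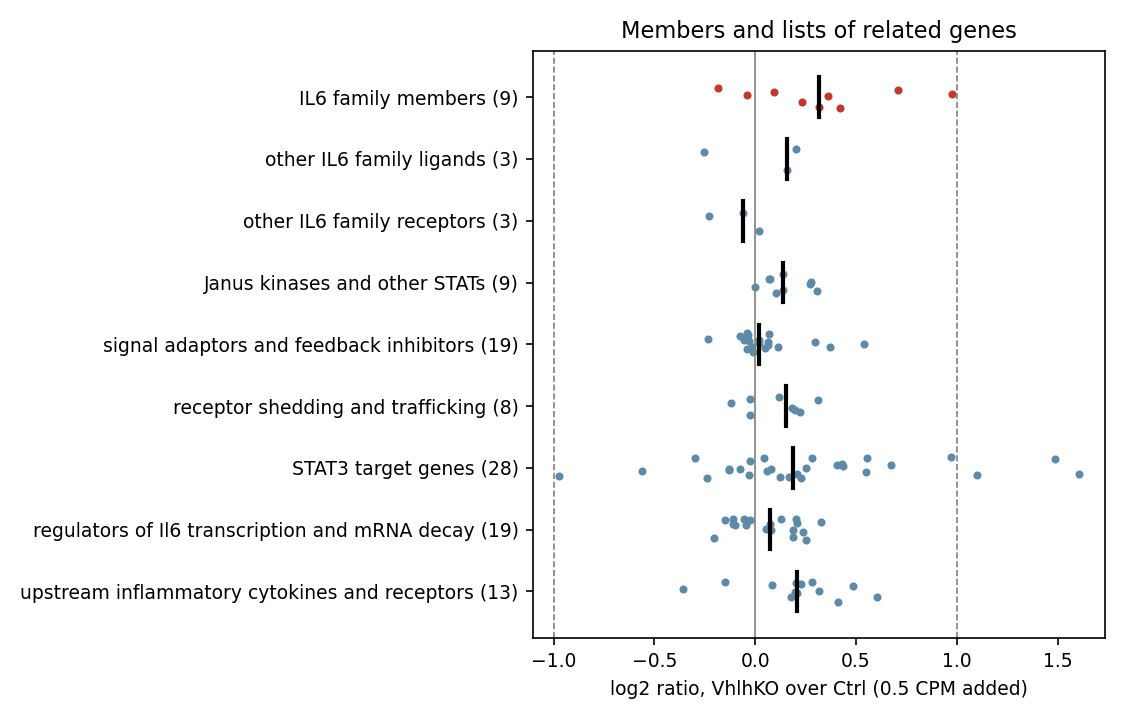
Log2 ratio of VhlhKO over Ctrl with 0.5 CPM added for the measured genes of the family and of 8 lists of related genes, with the number measured beside each list. Each point is a gene, black bars are list medians and dashed lines are 2-fold. Only the STAT3 target list has points past 2-fold, at 1.61 (*Saa3*), 1.49 (*Lcn2*) and 1.10 (*Ccl2*).

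Genes that regulate *Il6* transcription and mRNA decay had a median log2 ratio of 0.07 over 19 measured genes, none past 2-fold. *Zc3h12a*, which encodes the RNase Regnase-1 that degrades *Il6* mRNA, had a ratio of 1.27 (1.07 to 1.51). Further genes of this list were the early response gene *Egr1* (1.19, 1.14 to 1.24), the NF-κB inhibitor gene *Nfkbia* (1.18, 1.08 to 1.29) and the NF-κB subunit gene *Relb* (1.16, 1.01 to 1.33). Of the 19, 8 had an interval above 1 and 4 below, beside 19.0% and 17.3% of all genes. The 4 below were *Crebbp* (0.868, 0.814 to 0.926), *Fosl1* (0.898), *Nfkbiz* (0.926) and *Fosl2* (0.928). Of 13 measured upstream cytokines and receptors none was past 2-fold, with a median of 0.21. Of the 13, 9 had an interval above 1 and 1 below, beside the same shares of all genes. The 1 below was *Il17rc* (0.902, 0.841 to 0.966). The TNF receptor gene *Tnfrsf1b* had a ratio of 1.53 (1.43 to 1.63) on 2351 counts in VhlhKO and 1432 in Ctrl. The alarmin gene *Il33* had a ratio of 1.35 (1.14 to 1.59), *Il18* one of 1.61 (1.01 to 2.61) and *Tslp* one of 0.691 (0.412 to 1.15). *Il17a* and *Ifng* had no counts in either library.

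Markers of further cell types were read in the same libraries. The T, B and NK cell list was near 0, with 7 of its 10 genes at no counts and a sum of 0.146 CPM (VhlhKO) and 0.125 CPM (Ctrl). Of 9 proximal tubule genes measured, 5 passed the 2-fold rule downward and 1 (*Aqp1*) upward, beside 0.524% and 1.71% of all genes. None of the 5 had more than 51 counts in either library. Of the more abundant genes of the list, *Lrp2* had a ratio of 1.36 (1.26 to 1.48) and *Gpx3* one of 0.838 (0.832 to 0.844). Past 2-fold upward were also *Lyve1* and *Itga9*, 2 of 6 measured lymphatic genes, beside 1.71% of all genes. The podocyte gene *Podxl* passed as 1 of 7 measured and the mesothelial gene *Msln* as 1 of 5. Of the 7 podocyte genes, 4 had an interval above 1 and 2 below, *Nphs1* (0.531, 0.358 to 0.779) and *Nes* (0.928, 0.920 to 0.937). The intervals of *Prox1* (0.722 to 1.16) and the mesothelial gene *Upk3b* (0.510 to 1.09) included 1. No measured endothelial, parietal epithelial or distal tubule gene passed the rule. The part of these cells in the differences of the members was not tested.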

How the data were processed

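RNA of sorted Pdpn+ kidney cells was sequenced as 1 pooled library for VhlhKO and 1 for Ctrl, from poly(A)-selected, strand-specific preparations. Per the submitters' processing notes, STAR, featureCounts, cutadapt and DESeq2 were used with mm10 and GRCm38. Their versions and the strand setting are not given in the sources used. The deposited table holds whole-number read counts by gene as the authors obtained them, with no normalization. It also holds the authors' TPM, which divides by gene length and library total, and for 98.5% of 15262 genes compared the length implied by the deposited TPM was within 1% of the merged exon length in GENCODE M21. Its 3 columns of the authors' own comparison (a log2 fold change and p-values) were not used.

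TMM factors from edgeR 4.0.16 under R 4.3.3 were 0.997 (VhlhKO) and 1.003 (Ctrl). Ratios carry 95% exact conditional binomial (Clopper-Pearson) intervals and TPM values exact Poisson intervals, both from counts. Reads that are PCR copies of 1 molecule are not independent, and these intervals cover counting error only. Totals of 34465017 (VhlhKO) and 31817115 (Ctrl) counts set the precision, and 3 counts equal 0.0873 and 0.0940 CPM. Without replicates no test was run. The rule of size and the intervals were checked on simulated counts. 

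The members and gene lists were chosen with earlier results of these data known. Named genes are all 10 members, each list gene past 2-fold and up to 4 more per list with the largest absolute log2 ratio. Some genes that this rule names are not reported here. For the marker lists only those past 2-fold or at 0 are given, and not all of them. Other genes were chosen after their values were seen. These were *Vhl*, *Osm*, *Cdh5*, *Prox1*, *Pdpn*, *Flt4*, *Nrp2*, *Hoxb7*, *Cdh16*, *Epcam*, *Tagln*, *Acta2*, *Cspg4*, *Serpina3n*, *Lbp* and *Ptprc*, and also *Lrp2*, *Gpx3*, *Csf1r*, *Crebbp*, *Fosl1*, *Fosl2* and *Nfkbiz*. *Nphs1*, *Nes*, *Upk3b*, *Sort1* and *Il17rc* were chosen in the same way. Alternatives were total counts and DESeq2 (1.42.0) size factors, TPM, other added amounts, count minimums and fold sizes. Python 3.11.15, numpy 2.4.6, pandas 2.3.3, scipy 1.17.1 and matplotlib 3.10.9 did the rest. Coordinates are from GENCODE M21 (GRCm38) and promoter sequences from RefSeq (GRCm38.p6).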

Additional observations from a re-analysis of the deposited data

How the results depend on the processing

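Of the members that met the count minimum, none was at least 2-fold higher or lower with total counts, DESeq2 size factors, TPM, 5 CPM added, a minimum of 1 or of 100 counts, or a limit of 3-fold, and the median log2 ratio of the members stayed between 0.27 and 0.34 over these and the addition of 0.05 CPM. With 0.05 CPM added 1 of these (*Il6ra*) was higher, and with a limit of 1.5-fold 2 were (*Il6ra* and *Osmr*). *Il6*, which entered these counts only with a minimum of 1 count, had log2 ratios of 0.90 as reported, 1.17 by TPM, 2.74 with 0.05 CPM and 0.13 with 5 CPM added, so it would pass 2-fold in some and not in others. Over all genes, 435 were higher and 151 lower with 0.05 CPM added, 66 and 18 with 5 CPM, 725 and 278 at 1.5-fold and 63 and 25 at 3-fold, and 46 were lower with at least 100 counts. Of 51 values of single members under the alternatives, none changed sign, and *Il6ra* was at 0.57 with 5 CPM added. Counts of list genes moved by over 1.5 times in 7 of 144 cases, 6 of them among STAT3 targets: 1 lower by TPM and with 0.05 CPM, 1 higher with 5 CPM and at 3-fold, and 5 higher and 1 lower at 1.5-fold. Summing *Il11ra1* with *Il11ra2* was chosen after seeing the data. Depth limits *Il6* most, since its difference rests on 17 counts and 1 count. No library can be left out with 1 per genotype. No paired analysis was possible because each genotype has 1 library and no test was run.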
